A study of Mus musculus with 9 samples.

Results

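The 47 genes described here encode proteins that splice pre-mRNA or bind RNA in other steps of its life. They were chosen by symbol, as the Srsf, Hnrnp, Snrp, Sf3a, Sf3b, numbered Rbm, Rbfox, Celf, numbered Ddx and Dhx, Prpf, numbered Lsm, Ptbp, Elavl and Nova genes among the 2996 mouse genes analysed. Expression was measured by mRNA sequencing of perfused brain tissue from mice given as 24 months old, with 3 libraries in each of 3 groups. Group H drank water with 50 µg of PFOS per litre for 7.5 months, where PFOS is perfluorooctane sulfonate, a long-lived fluorinated chemical. Group L drank 0.5 µg per litre for the same time, and group C is the comparison group, with no dose stated. The labels name neither the strain, the sex nor the brain region, and nothing says whether libraries of a group stem from different animals, so the spread behind each p-value is that between these samples and may be technical.

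Splicing removes introns through the spliceosome, which is built from small nuclear ribonucleoproteins (snRNPs) with rings of Sm or Lsm proteins. It also holds the SF3 proteins that recognise the branch site and PRPF proteins, among them PRPF8 of the catalytic core. SR proteins mostly promote the use of exons and many hnRNPs mostly silence it, while DEAD-box and DEAH-box helicases remodel RNA and ribonucleoproteins. In the brain, RBFOX, NOVA, CELF and ELAVL proteins set neuronal patterns of splicing and mRNA stability, and PTBP1 represses neuronal exons in progenitors and non-neuronal cells.

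The values are FPKM, fragments scaled to gene length and to library size. The length used is that of all annotated exons of a gene merged, such as 25884 bases for Celf2, and not that of a transcript. Genes with many or long alternative exons can thus appear lower, and levels of different genes compare only roughly. The libraries held 15371513 to 20431208 reads in all. Of the 47 genes, 45 exceeded 1 FPKM in at least 3 libraries and were tested, and 2 did not. Those 2 were Snrpf, an Sm ring protein, at 0.123 to 1.08 FPKM (2 to 16 reads), and Dhx58, a sensor of viral RNA, at 0.179 to 0.944 FPKM (9 to 53 reads). Differences between groups are in units of log2(FPKM + 1), a scale that makes changes of weakly expressed genes look smaller, and SE is the standard error from limma.

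Markers of brain regions differed widely among the libraries. The summed level of the 4 cerebellar markers measured, Gabra6, Ppp1r17, Pcp2 and Slc1a6, reached 11.5, 4.37 and 2.48 FPKM in the H libraries in order, 44.0, 4.15 and 126 in those of L, and 549, 2.75 and 2.45 in those of C, so C1 and then L3 stood far above the rest. Gabra6, a receptor subunit of cerebellar granule cells, was listed at 0 in H2, H3, C2 and C3. The pallial marker Stx1a was lowest in the same libraries, with 3.35 FPKM in L3 and 1.11 FPKM in C1, and 27.1 or more in each other one. The neuronal markers Eno2 and Map2 were abundant in every library, with a summed level of 260.6 to 307 FPKM in H and L except L3 at 244, and of 179, 264 and 246 in C1 to C3. The striatal markers Adora2a and Rgs9 summed to 2.67, 53.0 and 2.62 FPKM in H, 57.0, 2.26 and 2.46 in L, and 1.26, 22.1 and 24.97 in C. The hypothalamic markers Agrp, Pomc, Trh and Hap1 summed to 49.5, 66.1 and 25.7 FPKM in H and 163, 47.9 and 54.3 in L. In C they summed to 31.9, 19.8 and 30.5, below every L library. Most of each sum was Hap1, at 132, 45.2 and 48.5 FPKM in L and 29.0, 17.5 and 28.5 in C. Trh in L2, at 1.59 FPKM, lay below C1 and C2 at 1.77 and 1.69, and Agrp and Pomc reached at most 1.22. All 5 endothelial and meningeal markers measured had higher means in L than in C, with sums of 48.0 to 74.0 FPKM in L and 31.8 to 48.3 in C that overlapped. The 5 astrocyte markers Gfap, Slc1a3, Slc1a2, Aldoc and Sox9 summed to 691, 664 and 539 FPKM in H. They summed to 668, 643 and 990 in L, and to 803, 657 and 670 in C. The oligodendrocyte marker Cnp had 96.8, 96.5 and 69.5 FPKM in H, 74.2, 49.1 and 129 in L, and 79.1, 89.0 and 73.4 in C. A score of the cerebellar markers against Stx1a entered an alternative fit as a covariate, given below. Beyond that fit, the part of these markers in the differences from C or L below was not tested. No marker on the microglial list was analysed here. In tissue of this kind, fewer cells of a type and less RNA per cell cannot be told apart. Results over the 45 genes are given with and without C1 or L3, the libraries that stood apart.

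The most abundant of the 47 genes was Ddx5, a DEAD-box helicase that acts in splicing and as a transcriptional co-regulator, with a mean of 173 FPKM over the 9 libraries. The SR protein gene Srsf5 (82.8 FPKM), the neuronal splicing factor gene Rbfox1 (80.5), Hnrnpa0 (64.3), Hnrnpa2b1 (61.2), the translation initiation helicase gene Ddx3x (58.9) and Prpf8, the scaffold of the catalytic core (52.7), followed. Below Ddx5, neighbours in this order differed by less than the SD over the libraries of the more variable of the pair, except Rbfox1 and Hnrnpa0. At the low end stood the helicase genes Dhx34 (2.01 FPKM) and Ddx39a (1.90) and the U6 ring gene Lsm2 (2.17). The median SD of log2(FPKM + 1) over the libraries was 0.23 for the 45 tested genes and 0.24 for all 2226 tested genes. By role it was widest in the 6 neuronal regulators (0.34) and narrowest in the 15 tested helicases (0.15).

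**Figure D1:**
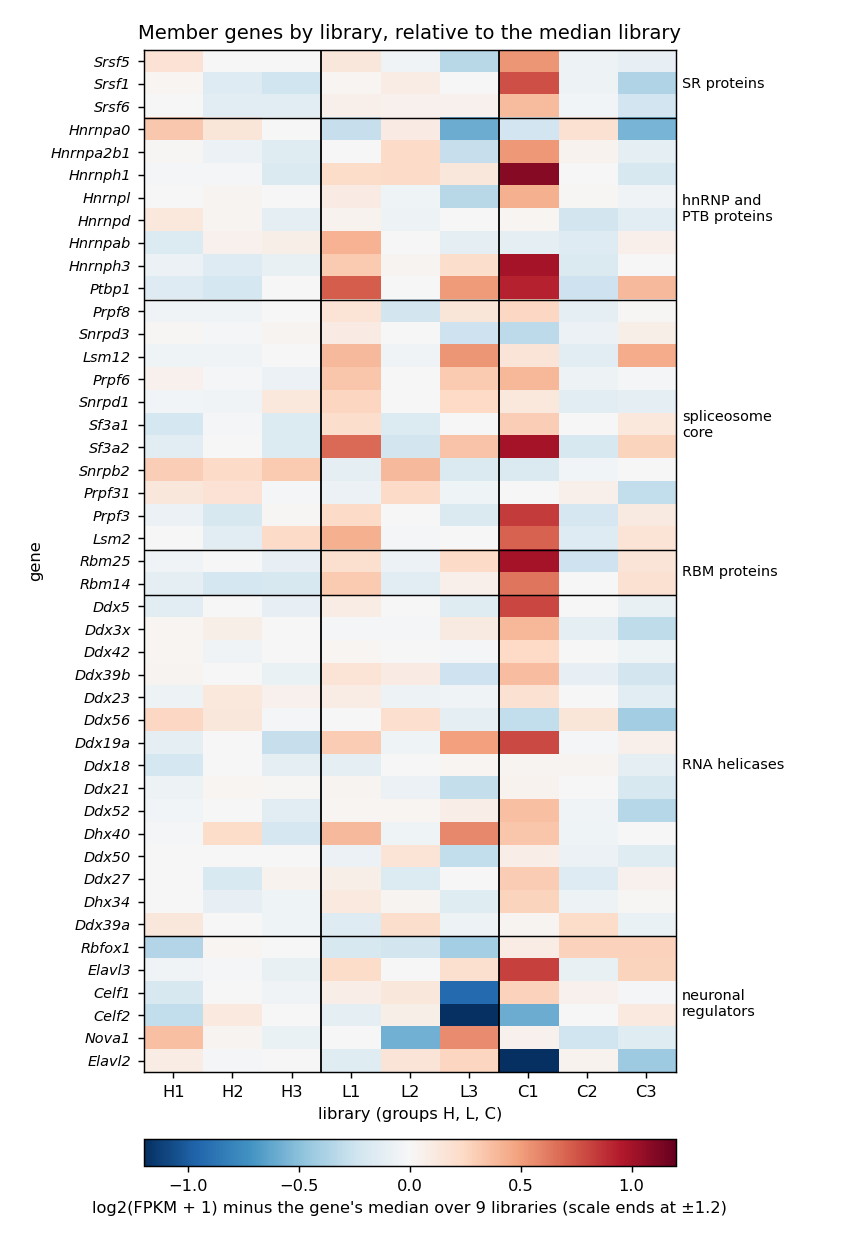
Each row is 1 of the 45 tested genes, ordered by role and level, and each column is a library of group H, L or C. Colour gives log2(FPKM + 1) minus the gene's median over the 9 libraries, and the column of C1 is red for most genes, with Elavl2 and Celf2 the darkest blue exceptions.

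A single library, C1, stood apart from the rest. It held the highest level of the 9 libraries in 29 of the 45 tested genes, where it did so in 29.5% of all tested genes. The levels in C1 were a median of 1.28 times the median of the other 8 libraries for these 45 genes, and 1.04 times for all tested genes. All 3 SR protein genes, both RBM genes and 11 of 15 helicase genes peaked in C1, as did 5 of 8 hnRNP and PTB genes and 6 of 11 core genes. Among the 6 neuronal regulators 2 did. The word core covers all Snrp, Sf3a, Prpf and Lsm genes by symbol, Lsm12 among them, and not the catalytic core alone. The cutoff of 1.5 times the median used next was chosen after the values were seen. In 12 of the 45 genes C1 reached at least 1.5 times the median of the other libraries, against 18.8% of all tested genes. Hnrnph1, whose protein binds runs of guanosine, stood at 33.0, 33.2 and 29.6 FPKM in the H libraries, 39.1, 39.4 and 36.8 in those of L, and 72.6, 33.5 and 29.2 in C1 to C3. Its close relative Hnrnph3 had 8.75, 8.16 and 8.62 FPKM in H, 11.7, 9.44 and 10.8 in L, and 19.4, 8.07 and 9.23 in C. In both genes C1 stood apart above every other library, and the remaining C libraries lay beside the H libraries. Rbm25, a splicing regulator, behaved likewise, with 6.36, 6.60 and 6.11 FPKM in H, 6.25 to 7.92 in L, and 14.2, 5.38 and 7.46 in C1 to C3. Ddx5 had 149, 164 and 153 FPKM in H, 174, 164 and 148 in L, and 285, 164 and 154 in C. The others past this cutoff were Srsf1, Ptbp1, Lsm2, Prpf3, Sf3a2, Rbm14, Ddx19a and Elavl3, at 1.77 to 2.19 times. The cerebellar markers peaked in the same library, and their part in these levels was not tested.

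L3, the library next in cerebellar markers, was not high in these genes as a whole. Its levels were a median of 0.98 times those of the other libraries for the 45 genes, and it held the lowest level in 13 of them, against 17.4% of all tested genes. Srsf5 stood at 63.1 FPKM in L3 and 115 in C1, against 74.5 to 90.2 in the other 7 libraries, so that these libraries lay at opposite ends. In 10 genes, against 12.8% of all tested genes, the 3 highest libraries were L1, L3 and C1, also the 3 with the highest cerebellar markers. One was Ptbp1, at 8.50, 7.17 and 9.85 FPKM in L1, L3 and C1, and 3.82 to 6.52 elsewhere. The others were Hnrnph3, Sf3a2, Prpf6, Prpf8, Snrpd1, Rbm25, Ddx19a, Ddx52 and Dhx40. Among the 5 astrocyte markers, Slc1a3 and Sox9 had the same 3 highest libraries, while Slc1a2 was lowest in C1. The part of cerebellar or astrocyte markers in this pattern was not tested.

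**Figure D2:**
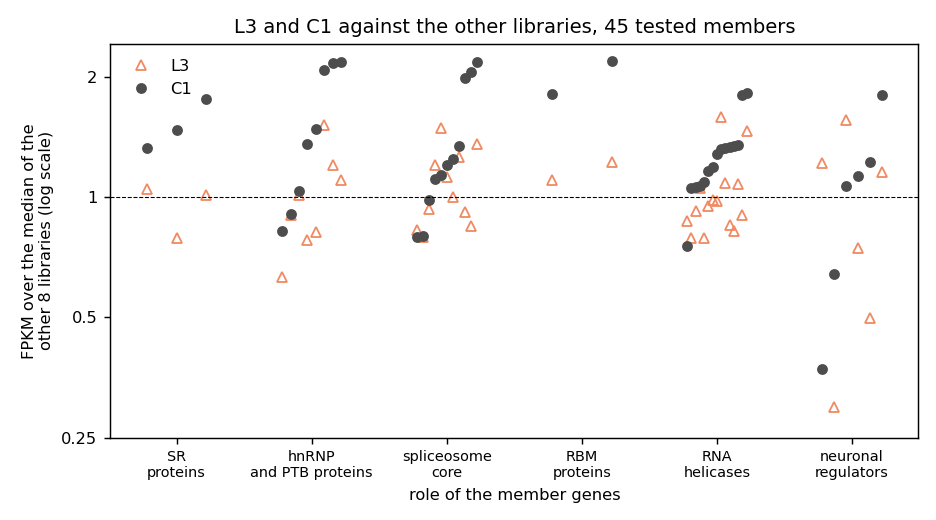
Points give, for each tested gene, the FPKM of L3 (open triangles) and of C1 (filled circles) divided by the median of the other 8 libraries, on a log axis, by role. Most circles lie above 1, up to 2.19, while triangles scatter around 1 and reach 0.299 in Celf2.

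Promoters of genes that were all high in C1 (Hnrnph3, Ptbp1, Srsf1) are shown beside that of Snrpb2, which was not, and that of Rbfox1, a long neuronal gene. Each is the 250 bases before a RefSeq transcript start on GRCm38.p6, 5′ to 3′ on the gene's strand. Capitals mark matches on either strand to the CCAAT box (CCAAT), the GC box (GGGCGG) and the ETS motif (CCGGAAG). The sequences are chr10:63023850-63024099 (minus strand), chr10:79854182-79854431 (plus), chr11:88047123-88047372 (plus), chr2:143062819-143063068 (plus) and chr16:5884543-5884792 (plus), in the order printed.
Hnrnph3: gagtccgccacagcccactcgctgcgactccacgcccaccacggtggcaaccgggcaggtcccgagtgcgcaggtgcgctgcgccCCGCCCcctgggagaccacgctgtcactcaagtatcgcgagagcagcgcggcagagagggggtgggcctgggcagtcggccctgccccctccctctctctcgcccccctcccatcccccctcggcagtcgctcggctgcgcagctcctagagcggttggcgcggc
Ptbp1: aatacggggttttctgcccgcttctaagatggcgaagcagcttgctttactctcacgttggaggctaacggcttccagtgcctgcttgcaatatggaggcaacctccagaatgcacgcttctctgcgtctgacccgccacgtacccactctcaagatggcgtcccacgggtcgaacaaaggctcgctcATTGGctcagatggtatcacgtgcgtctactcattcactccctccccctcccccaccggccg
Srsf1: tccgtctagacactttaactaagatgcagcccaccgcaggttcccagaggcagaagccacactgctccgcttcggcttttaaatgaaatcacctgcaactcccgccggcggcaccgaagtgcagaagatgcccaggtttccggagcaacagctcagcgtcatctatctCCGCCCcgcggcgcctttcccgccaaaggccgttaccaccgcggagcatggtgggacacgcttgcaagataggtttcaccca
Snrpb2: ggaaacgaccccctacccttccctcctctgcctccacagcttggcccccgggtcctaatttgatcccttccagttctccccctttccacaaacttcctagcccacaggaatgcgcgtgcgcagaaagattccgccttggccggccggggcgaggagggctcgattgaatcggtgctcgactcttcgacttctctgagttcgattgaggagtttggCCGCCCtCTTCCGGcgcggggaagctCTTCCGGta
Rbfox1: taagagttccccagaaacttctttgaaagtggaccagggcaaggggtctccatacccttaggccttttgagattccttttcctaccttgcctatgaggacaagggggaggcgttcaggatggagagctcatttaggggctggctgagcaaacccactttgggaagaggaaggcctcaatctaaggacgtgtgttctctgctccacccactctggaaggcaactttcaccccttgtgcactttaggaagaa

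Hnrnph3, Srsf1 and Snrpb2 each hold 1 GC box, Ptbp1 holds 1 CCAAT box, and Snrpb2 holds 2 ETS motifs. RefSeq gives 2 windows for Rbfox1, of which the one printed lies upstream of the GENCODE M21 start of the gene and the other inside it. Neither holds a match, and the other has 6 CpG dinucleotides. The printed window has 2 CpG dinucleotides against 25, 17, 19 and 19 in the windows of Hnrnph3, Ptbp1, Srsf1 and Snrpb2. RefSeq windows matched 42 of the 47 genes, 64 windows in all, with a median of 19 CpG, against 14 for the 3099 windows of all genes in the expression table. The CCAAT box was present in 48.4% of the 64 windows, against 34.7% in the table's genes and 33.8% of all 32851 RefSeq windows. For the GC box these shares were 59.4%, 53.5% and 32.7%, and for the ETS motif 15.6%, 10.8% and 6.91%. Also searched were the NRF1 motif, the CRE (TGACGTCA), the TATA box (TATAAA) and the YY1 motif, found in 3.12%, 3.12%, 7.81% and 0% of the 64 windows, in 1.39%, 2.48%, 7.87% and 0.419% of the windows of the table's genes, and in 0.782%, 1.55%, 12.4% and 0.207% of all RefSeq windows. Among the 20 windows of the 12 genes high in C1 the CCAAT box stood in 40.0% and the GC box in 55.0%. Windows of 1 gene can overlap and were counted separately, and the 2 windows with the NRF1 motif share 1 site of Dhx34. No motif contains another, and a match is a description of letters, not of binding.

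Setting H against C tests these genes at the higher PFOS concentration. None of the 45 passed an adjusted p of 0.05 (limma, lowest adjusted p = 0.89), as in 0% of all tested genes. Means were higher in H for 15 genes and lower for 30, with a median difference of -0.09, against 52.7% higher and a median of 0.02 over all tested genes. Without C1, 28 of 45 were higher with a median of 0.02, close to the 61.9% and 0.04 of all tested genes in that fit. The groups did not overlap in 4 genes, 1 higher and 3 lower, against 10.3% of all tested genes (5.35% higher and 4.94% lower), so this count was near the background. At an unadjusted p under 0.05 there was 1 gene, Rbm14, against 3.19% of all tested genes (1.35% lower), and limma-voom on the recovered reads had 0. Without C2 that count was 9 of 45, where 12.4% of all tested genes were past it.

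Rbm14, a paraspeckle protein that acts in transcription and splicing, stood at 3.02, 2.74 and 2.80 FPKM in H, against 5.77, 3.33 and 3.91 in C. Every H library lay below every C library. The log2 difference was -0.45 ± 0.19 (SE), and -0.26 without C1. In the annotation 18.6% of its exonic bases are shared with Gm21992, a gene on the same strand, and reads of these genes could have been split between them.

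Snrpb2, the B″ protein of the U2 snRNP, went the other way, with 9.95, 9.44 and 10.1 FPKM in H, against 6.91, 7.69 and 7.90 in C. H and C did not overlap, and the difference was 0.35 ± 0.16 (SE), or 0.30 without C1. In L it had 7.28, 10.7 and 6.89 FPKM. Its lowest libraries were thus L3, C1 and L1, those with the highest cerebellar markers, whose part in this was not tested. Sf3a1, which with Sf3a2 belongs to the U2-associated SF3A complex, was lower, at 12.6, 14.6 and 13.0 FPKM in H and 18.3, 14.8 and 16.2 in C, without overlap. Its difference was -0.27 ± 0.14, and -0.20 without C1. Sf3a2 itself had 10.1, 11.2 and 9.86 FPKM in H and 23.2, 9.61 and 13.6 in C, and C2 lay below every H library. Of the 11 tested core genes 4 were higher in H, with a median difference of -0.12, and 7 without C1, with a median of 0.02.

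The SR and hnRNP genes mostly had lower means in H with C1 included. Without C1 the counts by role given next stand against 61.9% higher among all tested genes. All 3 SR genes lay lower, by a median of -0.12, and all 3 higher without C1, by 0.08. Srsf1, a general splicing factor, had 34.9, 30.7 and 29.0 FPKM in H, against 59.6, 33.0 and 26.6 in C. Of 8 hnRNP and PTB genes 3 were higher in H, with a median of -0.17, and 5 without C1, with 0.03. Hnrnpa0 was the one with the smallest p among the higher, at 84.7, 74.9 and 67.5 FPKM in H and 57.5, 76.8 and 45.5 in C, a difference of 0.36 ± 0.23 in which C2 lay among the H libraries. Of 15 helicase genes 5 lay higher, or 10 without C1. Ddx56, a nucleolar helicase of ribosome assembly, had 13.5, 12.4 and 11.1 FPKM in H and 8.93, 12.5 and 8.14 in C, a difference of 0.31 ± 0.17.

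Rbfox1 was lower at both concentrations. This gene on chromosome 16 (5885355 to 7411526, GRCm38, plus strand, ENSMUSG00000008658) spans 1526 kb and encodes a neuronal splicing factor. It stood at 64.4, 83.9 and 82.6 FPKM in H, 72.4, 70.6 and 62.2 in L, and 87.8, 100.1 and 100.4 in C. All 6 libraries of H and L lay below all 3 of C, and the group means were 77.0 ± 10.9, 68.4 ± 5.42 and 96.1 ± 7.21 FPKM in H, L and C (SD, n = 3). The log2 difference was -0.32 ± 0.14 (SE) for H against C and -0.48 ± 0.14 for L against C, and these comparisons share the C libraries. Neither passed the threshold (limma, adjusted p = 0.89 and 0.998). The differences were -0.39 and -0.55 without C1, and -0.48 for L against C without C1 and L3. It was the gene with the smallest p of the 45 in an F test over the groups (limma, adjusted p = 0.958), and this choice was made on these values. C1, with the highest cerebellar markers, held the lowest Rbfox1 level of C, and L3 the lowest of all 9.

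The other neuronal regulators divided. Elavl2, one of the neuronal Hu proteins that stabilise mRNA, stood at 13.9, 12.8 and 13.0 FPKM in H, 11.7, 14.6 and 15.7 in L, and 4.89, 13.4 and 9.33 in C. C1 was far below all other libraries, and C2 lay among those of H and L. The differences were 0.57 ± 0.29 (SE) for H against C and 0.64 ± 0.29 for L against C, and 0.22 and 0.29 without C1. Its paralogue Elavl3 ran the other way, at 31.4, 31.9 and 30.4 FPKM in H, 37.7, 32.3 and 37.1 in L, and 57.9, 30.2 and 39.1 in C, with C1 the highest of the 9. Its difference for H against C was -0.38 ± 0.21, and -0.14 without C1. In C1 the paralogues thus stood at 0.370 times (Elavl2) and 1.80 times (Elavl3) the median of the other libraries.

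Celf1 and Celf2, whose proteins bind GU-rich RNA, were both lowest in L3. Celf1 had 31.2, 35.8 and 34.8 FPKM in H, 37.8, 39.4 and 18.2 in L, and 43.7, 37.2 and 35.5 in C. Celf2 had 15.1, 20.5 and 18.8 FPKM in H, 17.2, 19.7 and 5.62 in L, and 12.1, 18.8 and 20.4 in C. C1 was the highest library for Celf1 and the second lowest for Celf2, so C1 and L3 parted on the first and not on the second. For L against C the Celf1 difference of -0.35 ± 0.27 became 0.08 without C1 and L3, and that of Celf2, -0.38 ± 0.41, became 0.13 without L3 and -0.09 without both. Nova1, a regulator of synaptic transcripts, had 20.0, 15.7 and 14.5 FPKM in H, 15.4, 9.94 and 23.3 in L, and 15.9, 12.9 and 13.8 in C, with overlap between all groups.

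**Figure D3:**
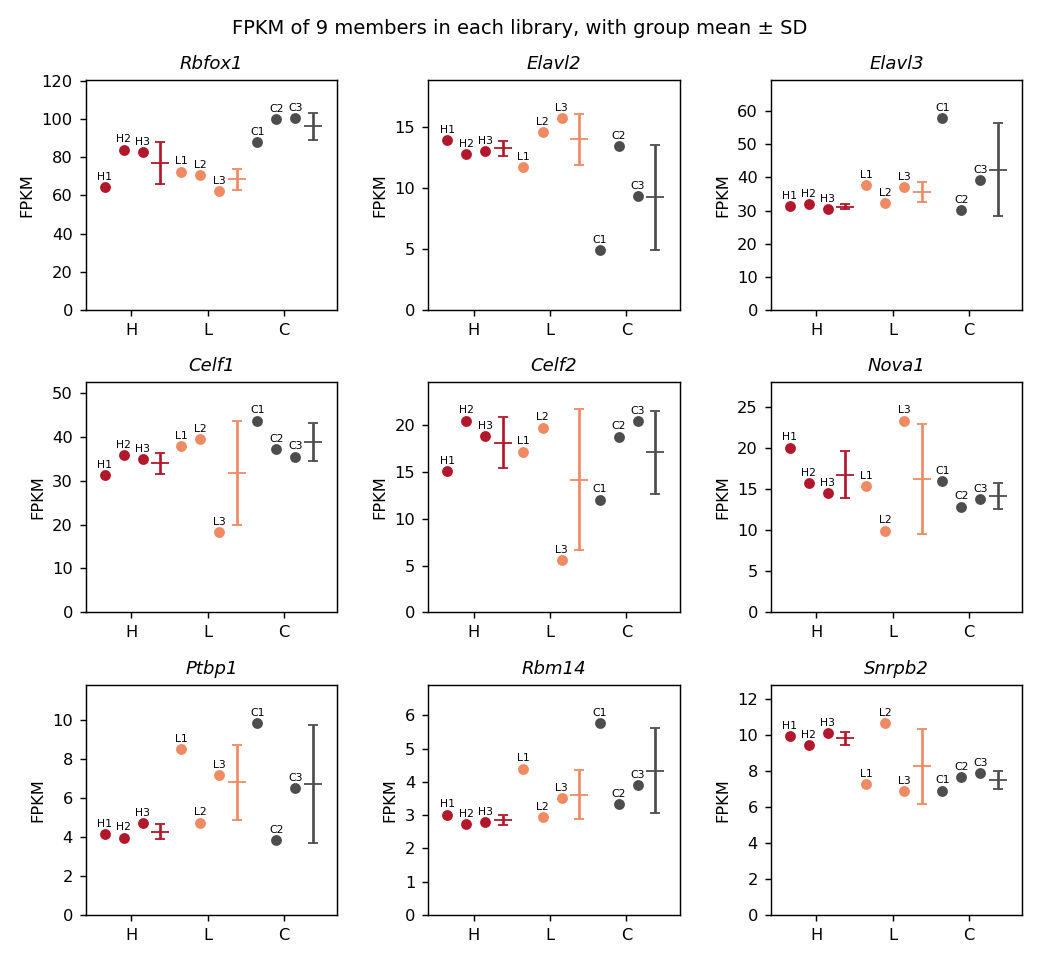
Points are single libraries of H, L and C, and the bar beside them is the group mean ± SD (n = 3), in FPKM from 0. Rbfox1 separates C from H and L, L3 is low in Celf1 and Celf2, and C1 is low in Elavl2 and high in Elavl3, Ptbp1 and Rbm14.

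The comparison of L with C addressed the lower concentration. None of the 45 genes passed (limma, lowest adjusted p = 0.998), as in 0% of all tested genes, and 1, Rbfox1, had an unadjusted p under 0.05, in limma and in limma-voom, against 3.91% of all tested genes (1.12% lower). Without C2 that count was 3, against 6.04% of all tested genes. Rbfox1 was also the one gene without overlap, against 6.65% of all tested genes (1.66% lower). Means were higher in L for 16 of 45 genes, with a median difference of -0.06, against 56.3% and a median of 0.03 over all tested genes. Without C1 the numbers were 35 of 45 and 0.07, against 66.1% and 0.08 over all tested genes. Without C1 and L3 they were 39 of 45 and 0.13, against 68.5% and 0.09. C1 was the highest library in 29 of the 45 genes and L3 the lowest in 13. Leaving both out in itself raises L relative to C in those genes, so the counts by role given next are descriptions only. In that reduced set, with 2 libraries in L and 2 in C, 8 of 8 hnRNP and PTB genes were higher, with a median of 0.21. So were 10 of 11 core genes, with 0.16, 13 of 15 helicase genes, with 0.10, all 3 SR genes and both RBM genes. Of the RBM genes, Rbm14 was at 7.3e-05. Among the 6 neuronal regulators 3 were higher, with a median of -0.03. With all libraries the counts were 3 of 8 for hnRNP and PTB genes and 6 of 11 for core genes. Snrpd1, an Sm ring protein, had the smallest p among the higher genes after Elavl2, at 19.4, 16.1 and 19.1 FPKM in L and 17.7, 14.6 and 14.8 in C, a difference of 0.20 ± 0.13 (SE). Hnrnpl, which binds CA repeats, had 36.2, 32.5 and 26.5 FPKM in L and 45.6, 34.0 and 32.6 in C, and its difference of -0.23 ± 0.16 became 0.04 without C1 and L3. The helicase gene Dhx40 had 8.01, 5.66 and 9.26 FPKM in L and 7.68, 5.63 and 5.89 in C, a difference of 0.21 ± 0.20.

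Setting H against L compares the PFOS concentrations directly. None of the 45 passed (limma, lowest adjusted p = 0.961), as in 0% of all tested genes, and 0 had an unadjusted p under 0.05 in limma or limma-voom, against 1.35% of all tested genes. Without L2 it was 5, against 8.3% of all tested genes, and without C1, which enters the shared estimate of spread, it was 3, against 4.21%. In 6 genes the groups did not overlap, all of them lower in H, against 6.74% of all tested genes for that direction and 9.07% for both. Ptbp1 was the one with the smallest p, at 4.14, 3.96 and 4.70 FPKM in H and 8.50, 4.74 and 7.17 in L, a difference of -0.54 ± 0.29 (SE) and of -0.49 without L3. H3 and L2 were nearly equal. Hnrnph1, Hnrnph3, Srsf6, Ddx52 and Elavl3 were the others, at differences of -0.29 to -0.10. For Ptbp1 3 genes on the other strand overlap 9.22%, 6.22% and 5.30% of the exonic bases, and whether counting used the strand is not given in the sources used here.

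Means were higher in H than in L for 17 of 45 genes, with a median of -0.06, against 44.9% and -0.03 over all tested genes. Without L3 they were higher for 15, with a median of -0.11, against 40.2% and -0.04, and without L1 for 23, with a median of 0.0043, against 47.0% and -0.01. With the marker score of cerebellum against pallium as a covariate the direction turned, with 28 higher and a median of 0.05, against 49.9% of all tested genes. The pallial part of that score is Stx1a alone. In the same fit most genes stayed lower in the comparisons with C. In H against C 19 were higher (median -0.03, against 56.4% of all tested genes), and in L against C 15 (-0.05, against 56.1%). Lsm12, an Lsm-domain protein, had 17.4, 17.6 and 18.1 FPKM in H and 24.0, 17.5 and 26.7 in L, a difference of -0.32 ± 0.19, and L2 lay with the H libraries. Ddx19a, a helicase of mRNA export, had 8.01, 8.79 and 7.08 FPKM in H and 11.1, 8.42 and 12.8 in L (-0.38 ± 0.23). Among the higher genes, Hnrnpa0 (0.42 ± 0.23), Snrpb2 (0.24 ± 0.16) and Celf2 (0.49 ± 0.41) had overlapping groups, and Celf2 was at -0.03 without L3. The higher levels of Ptbp1, Lsm12 and Ddx19a within L were those of L1 and L3, the L libraries with cerebellar markers. The part of these markers was not tested beyond the covariate fit above.

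**Figure D4:**
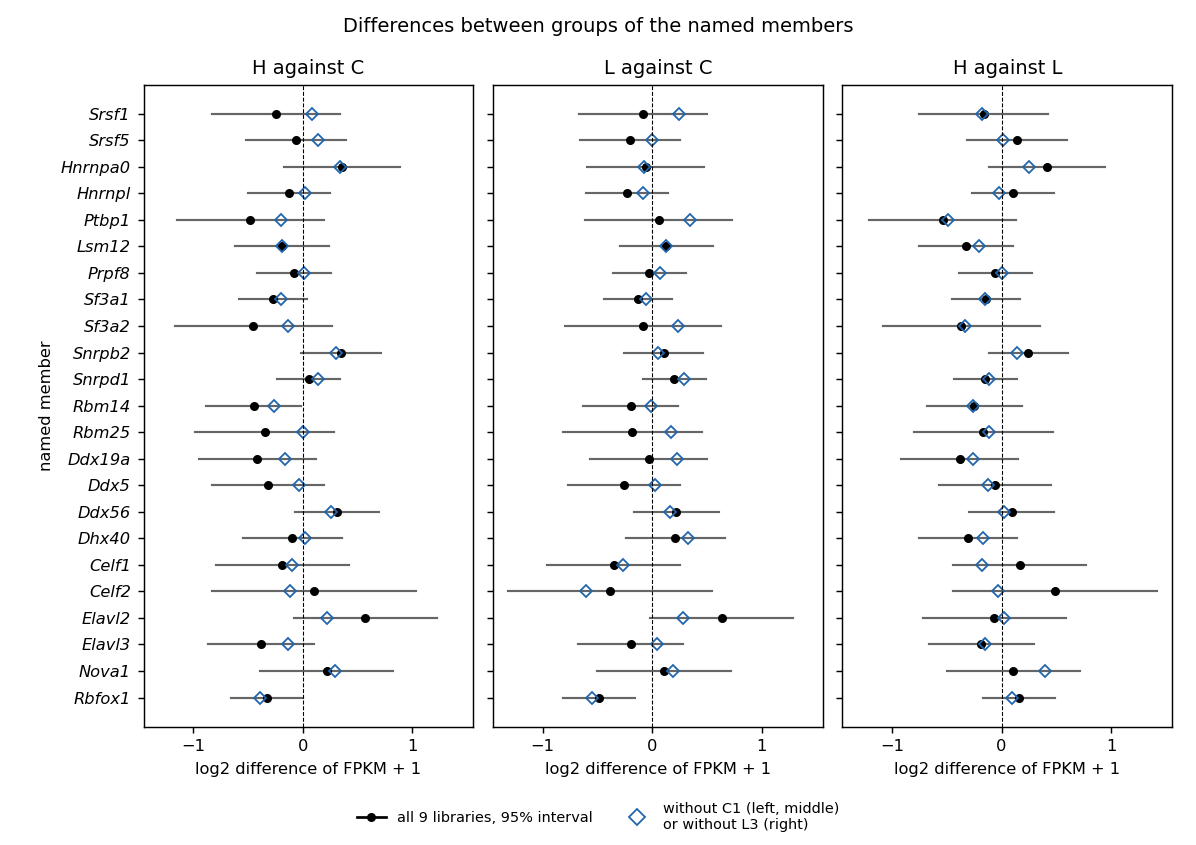
Filled points and lines are log2 differences of FPKM + 1 with 95% confidence intervals from limma for the 23 named genes, 1 panel per comparison, with L against C in the middle and H against L on the right. Open diamonds give the value without C1 in the first and second panels and without L3 in the third, and most diamonds of the first panel lie closer to 0 than the points.

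Other genes of RNA processing were read from 6 lists of spliceosome proteins, SR kinases, export factors, RNA-binding regulators, snRNP assembly and polyadenylation, 35 of whose genes were tested. None passed in any comparison (limma, adjusted p of 0.89 or more). At an unadjusted p under 0.05 there was 1 in H against C, lower in H (3.19% of all tested genes, 1.35% lower), and 0 in the other comparisons. Means were higher in H than in C for 8 of 35 (52.7% of all tested genes), or 20 without C1 (61.9%). In L they were higher than in C for 11 (56.3%), or 21 without C1 (66.1%) and 26 without C1 and L3 (68.5%). In H they were higher than in L for 15 (44.9%), or 11 without L3 (40.2%). The gene past the unadjusted threshold was Papola, a poly(A) polymerase, at 13.9, 14.6 and 14.5 FPKM in H against 22.8, 15.9 and 17.1 in C, without overlap (-0.33 ± 0.14, SE). Zfp36l1, which promotes decay of AU-rich mRNA, had 8.94, 8.69 and 8.11 FPKM in H, 11.1, 9.33 and 15.5 in L, and 15.4, 9.29 and 11.9 in C. Its H libraries lay below all others. In L against C the smallest p belonged to Snw1, a spliceosome protein, with 6.56, 6.75 and 5.99 FPKM in L and 7.89, 7.91 and 6.81 in C (-0.20 ± 0.11), and to the SR kinase gene Srpk1 (-0.23 ± 0.15). In H against L the translational repressor gene Pum2 (0.18 ± 0.14) followed Zfp36l1 (-0.41 ± 0.21).

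The tested genes held 93 reads or more in every library. The median 95% confidence interval of a difference, not adjusted for the number of genes, reached 0.40 log2 units to either side, or 1.32-fold of FPKM + 1. Smaller changes could not be told from the spread, and larger ones did not pass the adjusted threshold either. For Celf2 in H against C the interval ran from -0.83 to 1.04. Reads of near-identical copies could have been split in counting, which concerns the pairs Ddx39a and Ddx39b and Hnrnph1 with its relatives. Opposite-strand genes overlap 29.1% of the exonic bases of Hnrnpab, 18.1% of Prpf31, 17.4% of Ddx39a, 16.1% of Sf3a2 and 65.9% of Snrpf. Reads of such overlapping genes cannot be told apart without strand.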

How the data were processed

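Per the file headers, the authors deposited FPKM values per gene and library with the gene length. The submitters' processing notes name the build GRCm38, and the sources used here do not give the aligner or counter. In each library, FPKM times length was a whole multiple of 1 smallest step for 100% of values (tolerance 0.01). That step is the value of 1 read, and it gave the reads per gene and the library totals. The 2996 genes have Ensembl numbers 1 to 21270, and other genes were not analysed here. All 2996 Ensembl identifiers matched GENCODE M21, from which gene coordinates were taken, since those in the table equalled it for 20 genes. The span from start to end was equal for 2950 genes, so most of the deposited positions are shifted against this annotation. The source of the shift, such as another build, was not tested.

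A linear model with 3 groups was fitted to log2(FPKM + 1) of all 2226 genes over 1 FPKM in 3 or more libraries (limma 3.58.1, R 4.3.3, trend and robust moderation). Two-sided p-values were adjusted over all genes tested (Benjamini-Hochberg), with calls at 0.05. The smallest p of an exact permutation test of 3 libraries against 3 is 0.1. The genes, lists and tests were chosen with earlier results of these data known, so counts over the list are descriptions. Named genes were the 4 smallest p in each direction and comparison, 7 genes named whatever their values, the highest and most variable gene of each role, and the 2 smallest p in each comparison over the other lists. Alternatives covered the pseudocount, filter, scaling, limma-voom, samples fitted, a replicate block, a marker covariate and libraries left out. Other steps used Python 3.11.15 with pandas 2.3.3, and promoters came from RefSeq.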

Additional observations from a re-analysis of the deposited data

How the results depend on the processing

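No gene of the 45 passed an adjusted p of 0.05 in any comparison under any of the 18 alternatives tried, so the count of calls was 0 throughout. With single libraries left out, the median difference ranged from -0.16 to 0.022 for H against C, from -0.12 to 0.072 for L against C and from -0.11 to 0.0043 for H against L, and the number of genes with a higher mean from 12 to 28, from 13 to 35 and from 14 to 23 of 45. The shares over all tested genes moved as well, from 46.7% to 61.9%, from 48.9% to 66.1% and from 40.2% to 47.8%. Scaling the libraries by a median of ratios (factors of 0.926 for C3 and 1.05 for L1) shifted these shares too. In L against C 45.6% of all tested genes were then higher, and 12 of the 45 (median -0.097). In H against L 52.2% were, and 20 of the 45 (median -0.015). For H against C the share was 50.1%, with 15 of the 45 (median -0.11). The main shares of 56.3%, 44.9% and 52.7%, in the same order, thus depend on the scaling. Without C1 and L3 together, 28 genes were higher in H against C, against 61.7% of all tested genes. In L against C 39 were higher, with a median of 0.13, against 68.5%. With the marker covariate 28 were higher in H against L, with a median of 0.046. It left 19 higher in H against C and 15 in L against C, with medians of -0.032 and -0.052. The 23 named genes in 3 comparisons gave 1239 values under these alternatives, of which 69 turned direction, 25 of them without C1 and L3, 15 without C1 and 8 without L3. They belonged to 34 of 69 differences, such as Srsf1 in H against C (-0.24, and 0.084 without C1), Celf1 in H against L (0.16, and -0.18 without L3) and Celf2 in L against C (-0.38, and 0.13 without L3). Among the 24 differences named for their p in a comparison, 6 of 431 values reversed. Without C1 and L3 the reversed values were 0.083 for Celf1, 0.088 for Ddx5 and 0.042 for Hnrnpl in L against C, and -0.030 for Celf2 in H against L. With single libraries left out Ddx5 ranged from -0.42 to 0.024 in L against C, reversing without C1, and Celf2 from -0.030 to 0.79 in H against L, reversing without L3. The cause was not tested.

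The replicate numbers in the labels are not said to pair libraries, and deviations of same-numbered libraries correlated at -0.51 to 0.68. With the number as a replicate block no gene passed the threshold, and the median differences were -0.095 for H against C, -0.058 for L against C and -0.056 for H against L. The genes at an unadjusted p under 0.05 then numbered 1, 2 and 2, where 3.86%, 3.28% and 1.8% of all tested genes were past it, against 1, 1 and 0 without the block.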
